A study of Mus musculus with 44 samples.

Results

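10 genes known as markers of the fibroblasts of the meninges, Fmod, Ogn, Dcn, Lum, Aldh1a2, Slc6a13, Slc22a6, Slc13a4, Slc6a20a and Ranbp3l, were followed through 28 whole mouse brains. They are 10 of the 54446 gene identifiers of the count table, and all 10 passed the filter on low counts that left 22079 genes. They were chosen from their lower levels at 26 than at 12 months on the control diet, and used as a fixed list of names. That comparison is therefore described for them without a test, and the tests below use the other comparisons. Of these, only the age comparison in KD-fed brains compares none of the control-diet brains.

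The brains came from male C57BL/6 mice of 4 groups with no engineered allele named in the sources. At 12 months, 5 mice received the control diet (CD) and 7 received a ketogenic diet (KD) for one week. At 26 months, 8 mice had stayed on CD and 8 had received the cyclic KD from 12 months on, in which weeks of KD alternate with weeks of CD. Brains at 26 months were collected at night, in a CD week for the cyclic KD mice. All mice ate standard chow until the experimental diets began at 12 months, so the age comparison on CD also comes with time on CD. A KD supplies almost no carbohydrate and raises the ketone body beta-hydroxybutyrate in blood. The tissue was the whole brain, and whether all meninges were left on it is not given in the sources used here.

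The meninges are the membranes around the brain, and their fibroblasts lay down the collagen-rich matrix of the pia, arachnoid and dura. Fibroblasts of the arachnoid barrier and the pia also carry transporters that move organic anions, amino acids, GABA and sulfate between cerebrospinal fluid and blood. They make retinoic acid through Aldh1a2, and during development this signal reaches the cortex beneath them. Fmod, Ogn, Dcn and Lum encode small leucine-rich proteoglycans that bind collagen fibrils and set their thickness.

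The members lie on 7 chromosomes (GRCm38). Fmod is at chr1:134037254-134048277, Ranbp3l at chr15:8967949-9067335, Slc22a6 at chr19:8618039-8628299 and Ogn at chr13:49608046-49624501. Slc6a13 (chr6:121300227-121337733) and Slc13a4 (chr6:35267957-35308131) share a chromosome, as do Aldh1a2 (chr9:71215789-71296243) and Slc6a20a (chr9:123634770-123678885). Dcn (chr10:97479609-97518143) and Lum (chr10:97565128-97572703) lie near each other. Ogn lies inside Cenpp on the opposite strand, and Slc6a20a overlaps Ccr9 on the opposite strand, so their reads could be split or shared if counting ignored strand, which the sources used here do not state. Slc6a20a also has a near copy, Slc6a20b.

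Promoters are shown because the members' levels moved together from brain to brain, as given further on. RefSeq sequence (GRCm38.p6) matched 8 of the 10 members, all but Dcn and Lum, and each line gives 250 bases before the RefSeq start, 5′ to 3′ on the gene's strand. The capitals mark the letters GGAATG or, on the other strand, CATTCC.
Ogn (chr13:49607765-49608014, plus strand): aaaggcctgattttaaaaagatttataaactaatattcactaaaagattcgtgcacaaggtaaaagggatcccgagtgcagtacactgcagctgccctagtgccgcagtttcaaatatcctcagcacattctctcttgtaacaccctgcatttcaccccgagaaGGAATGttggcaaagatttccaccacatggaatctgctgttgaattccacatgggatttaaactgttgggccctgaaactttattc
Slc13a4 (chr6:35308127-35308376, minus strand): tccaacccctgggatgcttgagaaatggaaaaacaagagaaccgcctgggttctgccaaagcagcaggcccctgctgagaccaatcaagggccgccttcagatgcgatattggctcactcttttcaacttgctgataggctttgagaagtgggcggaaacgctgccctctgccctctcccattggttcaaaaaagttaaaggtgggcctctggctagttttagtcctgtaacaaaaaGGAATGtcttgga
Slc22a6 (chr19:8617746-8617995, plus strand): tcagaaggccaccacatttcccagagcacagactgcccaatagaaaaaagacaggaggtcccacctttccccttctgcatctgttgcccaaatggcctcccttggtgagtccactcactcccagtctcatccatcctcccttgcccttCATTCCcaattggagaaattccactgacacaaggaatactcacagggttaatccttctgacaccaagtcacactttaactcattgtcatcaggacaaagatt
Slc6a13 (chr6:121300038-121300287, plus strand): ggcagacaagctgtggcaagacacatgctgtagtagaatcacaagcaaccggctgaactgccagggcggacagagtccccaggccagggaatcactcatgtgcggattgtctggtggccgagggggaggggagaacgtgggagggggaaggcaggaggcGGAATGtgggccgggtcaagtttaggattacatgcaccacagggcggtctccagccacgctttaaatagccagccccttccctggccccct
Fmod (chr1:134037004-134037253, plus strand): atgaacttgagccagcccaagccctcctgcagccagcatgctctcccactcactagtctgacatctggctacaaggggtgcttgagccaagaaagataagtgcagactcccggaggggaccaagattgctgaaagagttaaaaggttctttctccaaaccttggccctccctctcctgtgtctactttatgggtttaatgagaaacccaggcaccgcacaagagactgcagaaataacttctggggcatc
GGAATG on either strand stood in 4 of the 8 member promoters, those of Ogn, Slc13a4, Slc22a6 and Slc6a13, and in 12.6% of all 32851 promoters of this length. It began 86, 13, 102 and 91 bases before the start. Fmod is shown as a member without it. TATAAA stood in 1 of the 8 (Ogn) against 12.4% of all, AGGTCA in 0 against 14.02% and GTAAACA in 0 against 3.17%. These are matches of letters, picked with earlier results of the data known.

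Depth was similar across groups at 7447742 to 12744415 counts per brain. Genes with at least 1 count nevertheless numbered 30019 to 31181 in the 12-month brains and 31438 to 44376 in the 26-month brains, with no overlap, and the part of this difference in the results was not tested. At this depth the members' counts ran from 9 to 502 in a brain. Levels are CPM, each count relative to its library's total after scaling by TMM. Neuronal, glial and microglial markers (11 genes) summed to 6463 to 8766 CPM in every brain. The predicted gene Gm10800 held a share of 0.0347% to 1.22% in all 16 brains of 26 months and at most 0.00170% at 12 months. It moves with age, so age and this signal cannot be told apart. Among the 8 brains of 26 months with the least of it, the highest level stayed below the lowest of the 12-month brains for 3 of the 10 members, Fmod, Ranbp3l and Slc6a13, as it did over all 16 brains. For the other 7 it did not, as for Slc22a6 (6.73 against 5.96 CPM) and Slc13a4 (11.7 against 9.07 CPM). The share of all genes without such overlap was not counted for this split, so the 3 of 10 is a description only.

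On CD, the 5 brains of 12 months held Fmod, a proteoglycan of collagen fibrils, at 25.2, 16.97, 17.6, 13.9 and 12.3 CPM (mean 17.2 ± 4.97, SD). The 8 brains of 26 months ran from 3.16 over a median of 4.08 to 6.50 CPM, a 3.78-fold lower fitted level (log2 fold change -1.92, SE 0.23). All 26-month brains lay below all 12-month brains. In bulk tissue, fewer cells of a type and less RNA per cell cannot be told apart.

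The other members on CD had smaller log2 fold changes: Slc22a6 -1.88, Slc13a4 -1.53, Ranbp3l -1.43, Aldh1a2 -1.33, Ogn -1.33, Slc6a13 -1.12, Slc6a20a -0.95, Dcn -0.79 and Lum -0.59. Without 12-month CD replicate 1, its highest brain, Dcn had -0.35. The groups did not overlap for 7 of the 10 members, where 0.349% of all genes tested lay in that way, and this is the comparison from which the members were known. Slc22a6, an organic anion transporter, went from 9.19 ± 2.61 (SD, n = 5) to 2.51 ± 1.27 CPM (n = 8). Lum went from 3.25 ± 0.453 to 2.14 ± 0.582 CPM, with the groups overlapping.

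**Figure D1:**
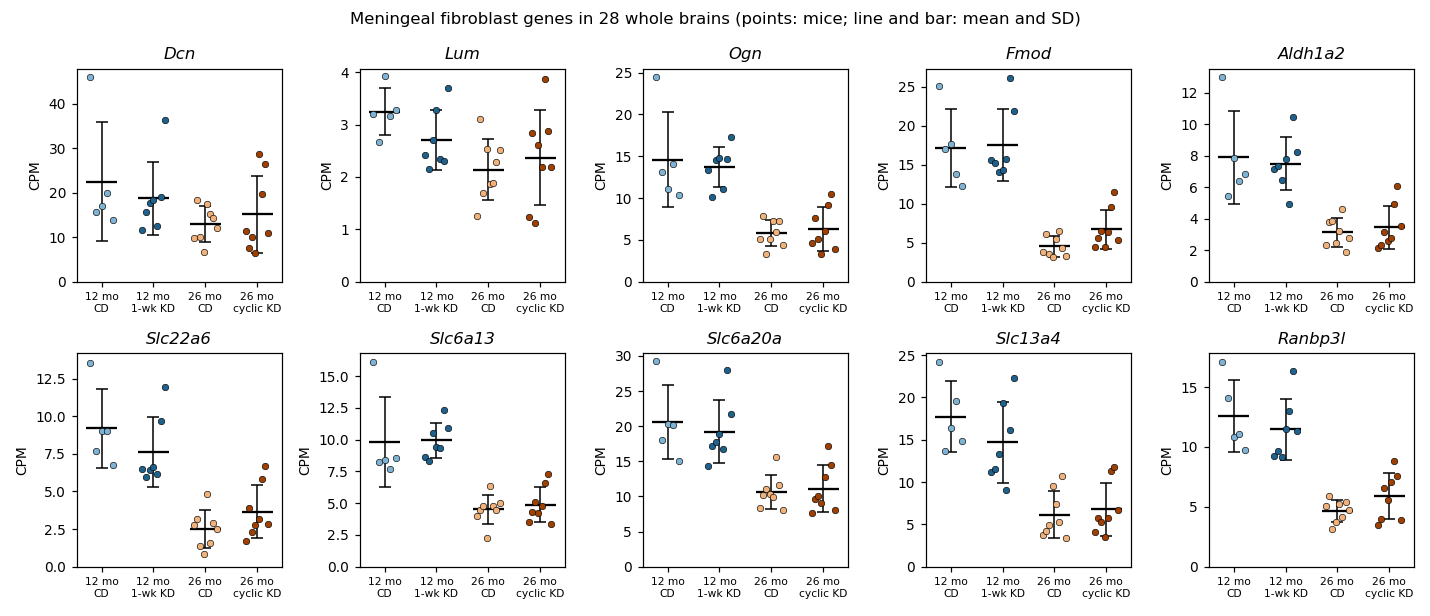
Levels of the 10 genes in each of the 28 brains (y axis, CPM) by group (x axis), points standing for mice and lines with bars for the mean and SD. In 8 of the 10 panels the 26-month groups sit low, while Dcn and Lum spread over overlapping ranges.

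The KD-fed brains tested the age step in mice other than those of the CD comparison from which the members were known. The spread between mice was still fitted over all 28 brains, CD brains included. Age there also comes with diet length and phase. The 12-month mice had one week of KD, and the 26-month mice a cyclic KD ending in a CD week. 7 of the 10 members were lower at 26 months at an adjusted p under 0.05 (edgeR's quasi-likelihood test, Benjamini-Hochberg adjustment over all genes), where 0.181% of all genes tested were called lower and 0.562% higher, and 8 of 10 were called by DESeq2. Their log2 fold changes ran from -0.79 to -1.38. All 10 members had a negative value, with a median of -1.03, against a median of 0.00 over all genes and 48.9% of them below 0.

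Fmod ran from 14.1 over a median of 15.6 to 26.2 CPM in the 7 brains of 12 months on KD, and from 4.45 over 6.02 to 11.5 CPM in the 8 of 26 months. No 26-month brain reached the lowest 12-month brain. The fitted level fell by 1.38 on the log2 scale (SE 0.21, adjusted p = 0.00033, edgeR), a 2.60-fold lower level and rank 2 by p among all genes that were lower. Ogn, another proteoglycan, ran from 10.2 over 14.6 to 17.4 CPM at 12 months and from 3.26 over 5.64 to 10.5 CPM at 26 months. 7 of 8 of the older brains lay below all of the younger, and the level fell by 1.12 (SE 0.22, adjusted p = 0.0099, edgeR). Dcn and Lum, of the same family, did not pass the test. Dcn ran from 11.7 to 36.3 CPM at 12 months and from 6.52 to 28.6 CPM at 26 months (log2 fold change -0.31, SE 0.32, adjusted p = 0.906, edgeR), and Lum from 2.15 to 3.70 and from 1.11 to 3.87 CPM (-0.18, SE 0.21, adjusted p = 0.925, edgeR).

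Aldh1a2, the enzyme that makes retinoic acid from retinaldehyde, ran from 4.97 over 7.36 to 10.5 CPM at 12 months and from 2.18 over 2.97 to 6.10 CPM at 26 months. The groups overlapped in 1 older brain, and the level fell by 1.11 (SE 0.22, adjusted p = 0.0105, edgeR).

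Among the transporters, Slc6a13, which carries GABA and related amino acids, ran from 8.36 over 9.46 to 12.3 CPM at 12 months and from 3.38 over 4.54 to 7.26 CPM at 26 months. The ranges did not meet, and its level fell by 1.02 (SE 0.18, adjusted p = 0.0034, edgeR). Slc6a20a, an imino acid transporter, ran from 14.4 over 17.8 to 27.9 CPM at 12 months and from 7.57 over 9.81 to 17.1 CPM at 26 months (log2 fold change -0.79, SE 0.17, adjusted p = 0.0233, edgeR). 6 of 8 of its older brains lay below all of the younger ones. Slc13a4, a sodium-coupled sulfate transporter, ran from 9.07 over 13.3 to 22.3 CPM and from 3.45 over 5.76 to 11.7 CPM (-1.12, SE 0.27, adjusted p = 0.0402, edgeR), and Slc22a6 from 5.96 over 6.46 to 12.0 CPM and from 1.70 over 3.01 to 6.73 CPM. Slc22a6 lay below all younger brains in 7 of 8 older brains but missed the threshold (log2 fold change -1.05, SE 0.28, adjusted p = 0.0773, edgeR).

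Ranbp3l, a Ran-binding protein, ran from 9.17 over 11.3 to 16.4 CPM at 12 months and from 3.50 over 6.09 to 8.82 CPM at 26 months. The groups did not overlap, and its level fell by 0.96 (SE 0.18, adjusted p = 0.0056, edgeR). With Fmod and Slc6a13 it made 3 of the 10 members without overlap between the ages, against 0.140% of all genes tested.

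The adjusted p of Slc13a4, Slc6a20a and Slc22a6 lay near the threshold. With only the 2 KD-fed groups fitted, Slc13a4 and Slc6a20a lost their calls (adjusted p = 0.0964 and 0.0777, edgeR). Slc13a4 lost its call without any 1 of 11 of the 15 brains (adjusted p up to 0.112), with log2 fold changes of -0.99 to -1.28 over the 15, the 4 that did not cost it the call being 12-month KD replicates 2 and 11 and 26-month KD replicates 14 and 15. Slc6a20a lost it without 12-month KD replicate 14 or 17, or 26-month KD replicate 12 or the one labelled Br_26_KD_168 (up to 0.0816), and its log2 fold changes over the 15 were -0.68 to -0.91. Slc22a6 passed without 26-month KD replicate 14 (0.0498) or 15 (0.0248). Without the 4 brains holding over 0.5% Gm10800, 3 of them KD-fed, the calls came to 4, and Slc13a4, Aldh1a2 and Ogn had adjusted p of 0.149, 0.0808 and 0.0524 (edgeR) with log2 fold changes of -1.12, -1.10 and -1.10, against -1.12, -1.11 and -1.12 with all brains.

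**Figure D2:**
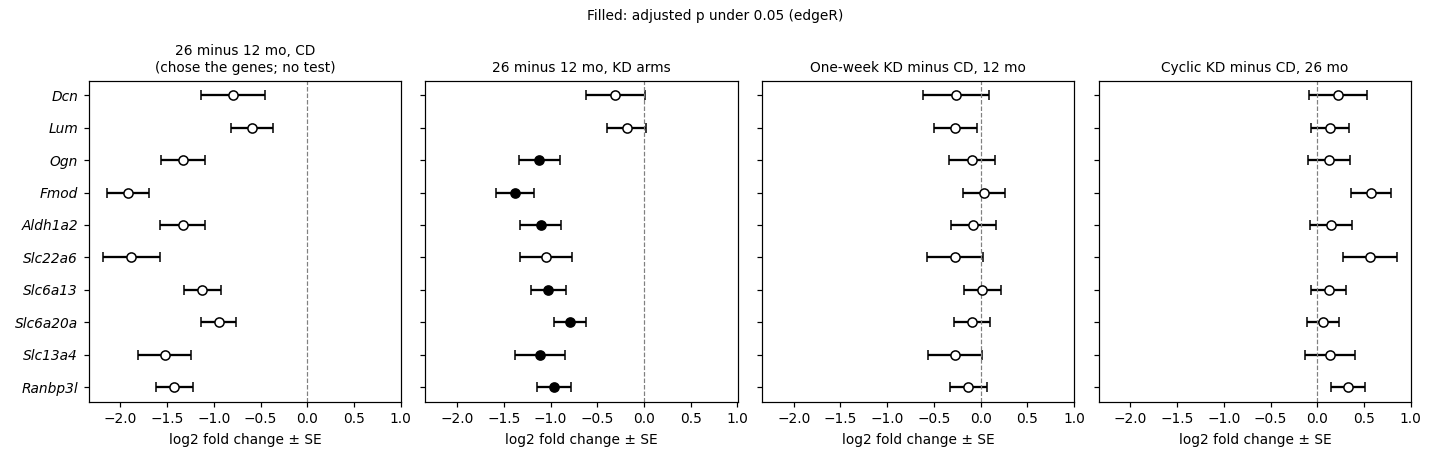
Fitted log2 fold changes with SE (x axis) of the 10 genes (y axis) in the 4 comparisons, filled where the adjusted p is under 0.05; the CD age panel carries no test. The KD age panel runs from -1.38 for Fmod to -0.18 for Lum, the one-week KD panel from -0.27 to 0.03 and the cyclic KD panel from 0.06 to 0.57.

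The one-week KD moved none of the members past the test at 12 months. Log2 fold changes (KD minus CD) lay between -0.27 and 0.03, with 8 of 10 below 0 and adjusted p of 1 throughout (edgeR). 0 members passed, none at an unadjusted p under 0.05 and none by DESeq2, where 0.00453% of all genes tested were called higher (1 gene) and 0 lower. Over all genes, 50.5% of the log2 fold changes lay below 0. Fmod stood at 17.2 ± 4.97 CPM on CD (n = 5) and 17.6 ± 4.62 CPM on KD (n = 7). CD replicate 1 was the highest of the 5 for 9 of the 10 members, and without it Dcn, Aldh1a2, Ogn and Slc6a20a had log2 fold changes of 0.17, 0.18, 0.18 and 0.07 in place of -0.27, -0.08, -0.09 and -0.10. This comparison shares its CD brains with the age comparison on CD.

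The cyclic KD of one year gave 10 of 10 members a positive log2 fold change at 26 months (KD minus CD), with a median of 0.15. Over all genes the median was 0.00, with 51.0% below 0. Of the members 0 passed (edgeR and DESeq2), and 0 genes of all tested passed. At an unadjusted p under 0.05 stood 1 member and 999 of all genes. Fmod was the member with that p (0.012, adjusted p = 0.989, edgeR). It ran from 3.16 over 4.08 to 6.50 CPM on CD and from 4.45 over 6.02 to 11.5 CPM on KD, with overlap between the groups (log2 fold change 0.57, SE 0.21). Slc22a6 stood at 0.56 (SE 0.29), Ranbp3l at 0.33 (SE 0.18) and the others between 0.06 and 0.22. KD replicate 15 was among the 2 highest of its group for 10 of the 10 members and replicate 14 for 9. Without replicate 15, 6 of 10 members were above 0 (Slc13a4, Aldh1a2, Ogn and Slc6a20a between -0.026 and -0.0082), and without replicate 14, 8 of 10 were. This comparison shares the CD brains of 26 months with the age comparison on CD. The members were chosen for lower levels in those brains than at 12 months, a choice that favours positive values here. The signs are therefore not independent of that choice.

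Per kilobase of exon, the order at 12 months on CD was Ogn (5.69 CPM per kb), Fmod (5.20), Slc6a20a (5.03), Slc13a4 (3.91), Dcn (3.85), Aldh1a2 (3.49), Slc6a13 (3.37), Slc22a6 (2.31), Ranbp3l (1.84) and Lum (1.33). Neighbours in this order differed by less than the larger of their SDs, except Ranbp3l and Lum (SDs of 0.438 and 0.185). At 26 months on CD the order was Slc6a20a (2.61), Ogn (2.26), Dcn (2.23), Slc6a13 (1.55), Aldh1a2 (1.38), Fmod (1.37), Slc13a4 (1.36), Lum (0.875), Ranbp3l (0.681) and Slc22a6 (0.630), where all neighbours differed by less than the larger of their SDs.

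Within groups the members moved with one another from mouse to mouse. Log2 CPM centred on the group means gave a positive Pearson r for 45 of 45 pairs over the 28 brains, with a median of 0.62 and a range of 0.17 (Slc6a13 and Lum) to 0.81 (Fmod and Slc6a20a). The median Spearman rho was 0.59, and the median r was 0.52 without 26-month KD replicates 14 and 15. Lum had the lowest median r with the other 9 (0.31) and Fmod the highest (0.73), and Dcn and Lum, close on chromosome 10, had 0.29. The points share libraries, so no p is given.

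**Figure D3:**
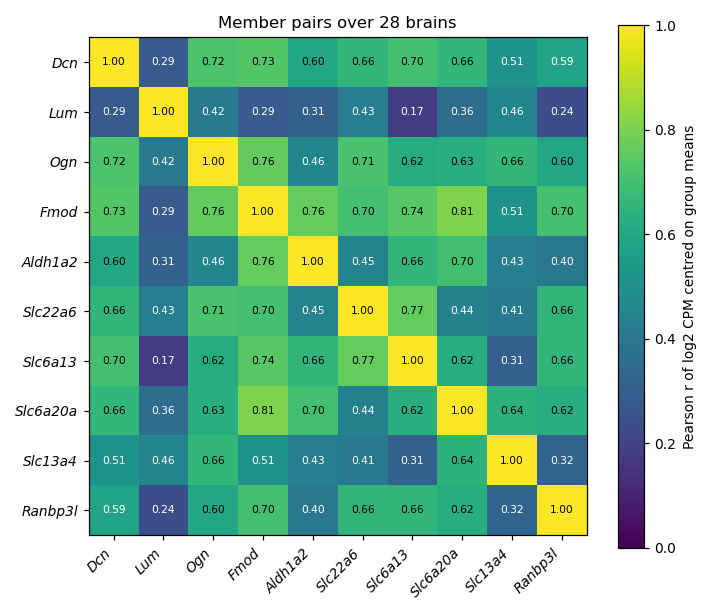
Pearson r between each pair of the 10 genes (both axes) over 28 brains, from log2 CPM centred on the group means, with the colour and the number in each cell. Fmod and Slc6a20a reach 0.81, and the row of Lum is the darkest, with values up to 0.46.

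The genes closest to the mean pattern of the members, of 20467 compared by Pearson r over the 28 brains, were Ptgds (r = 0.82), Omd (0.77), Foxc2 (0.73), Col1a1 (0.73), 9430092D12Rik (0.72), Prg4 (0.71), Faim (0.70), Slc26a7 (0.70), Mgp (0.70) and Gm22543 (0.70). The median r over all genes was 0.01, and 6 of these 10 are in the lists of matrix or meningeal genes below. Those lists were made with earlier results known. The share of all compared genes in them was not counted, so the 6 of 10 is a description only. Ptgds, which makes prostaglandin D2, had r = 0.77 without the 2 most extreme brains.

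Of a list of 56 tested further meningeal fibroblast genes, 6 were called lower and 0 higher between the ages in KD-fed brains (median log2 fold change -0.39, 44 of 56 below 0). Foxc1, a forkhead factor needed for meningeal development, went from 12.7 ± 1.89 to 8.09 ± 0.951 CPM (log2 fold change -0.65, SE 0.13, adjusted p = 0.0078, edgeR). Slc47a1, an exporter of organic cations, went from 4.26 ± 1.27 to 1.52 ± 0.725 CPM (-1.48, adjusted p = 0.0157, edgeR), and Islr and Col1a2 fell by 0.95 and 0.90 (adjusted p = 0.0098 and 0.0194, edgeR). On CD, 13 of the 56 were called lower, where 0.258% of all genes tested were. The summed level of the list overlapped between the ages in KD-fed brains, with medians of 1303 CPM at 12 months and 1226 CPM at 26 months. This list was made with earlier results known.

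Of 14 other small leucine-rich proteoglycans, 1 was called lower in KD-fed brains, Bgn, at 16.1 ± 2.19 and 10.6 ± 1.86 CPM (log2 fold change -0.60, SE 0.13, adjusted p = 0.0262, edgeR). Of 14 related transporters 2 were called lower and 0 higher: Slc22a8, an organic anion transporter, at 18.5 ± 2.43 and 10.4 ± 2.17 CPM (-0.82, adjusted p = 0.0015, edgeR), and Slc13a3, a dicarboxylate transporter (-0.76, adjusted p = 0.0228, edgeR). Of 26 fibrillar collagen and matrix enzyme genes 1 was called lower, Col1a2. Of 17 further genes of retinoic acid synthesis and response 0 were called (edgeR, 1 at an unadjusted p under 0.05 and 0 by DESeq2), Stra6 having a log2 fold change of -0.77 with adjusted p = 0.198 (edgeR). Neither diet comparison called any gene of these lists, where 1 gene in all and 0 genes were called.

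Markers of other cell types were read the same way in KD-fed brains. The pericyte and smooth muscle list summed to 242 to 284 CPM at 12 months and 195 to 253 CPM at 26 months. Of its 13 tested genes 1, Rgs5, was called lower (-0.39), with a median of -0.18 over the list (edgeR, 6 at an unadjusted p under 0.05 and 1 by DESeq2). The endothelial list summed to 422 to 482 CPM and 354 to 424 CPM, with 1 of 15 called lower, Kdr (-0.77). Its median log2 fold change was -0.21, with 14 of 15 below 0 (edgeR, 4 at an unadjusted p under 0.05 and 3 by DESeq2). The border macrophage list summed to 30.1 to 42.6 and 28.1 to 42.1 CPM, with 0 of 6 called (edgeR, 1 at an unadjusted p under 0.05 and 0 by DESeq2). The choroid plexus list spread from 39.9 to 1006 CPM at 12 months and from 50.1 to 557 CPM at 26 months with 0 of 16 called and a median log2 fold change of -0.51, 14 of 16 being below 0 (edgeR, 0 at an unadjusted p under 0.05 and by DESeq2). In 12-month KD brains, Slc13a4 was highest in replicates 17 and 10 (22.3 and 19.3 CPM), where the choroid plexus sums were largest (700 and 1006 CPM). It was lowest in replicates 11 and 2 (9.07 and 11.2 CPM), at sums of 45.1 and 39.9 CPM. Replicate 14, at a sum of 69.2 CPM, held 16.2 CPM. In 26-month CD brains Slc13a4 was highest in replicates 7 and 4 (10.7 and 9.57 CPM), also with the largest sums (806 and 729 CPM). In 12-month CD and 26-month KD brains the highest brain did not hold the largest sum. These were 12-month CD replicate 1 (24.1 CPM, sum of 485 CPM) and 26-month KD replicate 15 (11.7 CPM, sum of 391 CPM). The part of these cell types in the members' lower levels was not tested. Of 9 ependymal genes and 11 brain cell genes 0 were called (edgeR, 1 and 2 at an unadjusted p under 0.05, DESeq2 0), with median log2 fold changes of -0.43 and 0.06. Of the tested genes of the dural mast cell, melanocyte, blood, muscle and bone, and pituitary lists 0 were called (edgeR, with 0, 0, 1, 1 and 2 at an unadjusted p under 0.05, DESeq2 0). Between the ages on CD, the pericyte and endothelial lists had median log2 fold changes of 0.09 and 0.08, with 0 called lower. On CD 2 endothelial genes were called higher (edgeR). Rgs5 and Kdr stood at 0.15 and -0.02 there, and at 0.27 and 0.54 for the one-week KD (not called, edgeR).

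**Figure D4:**
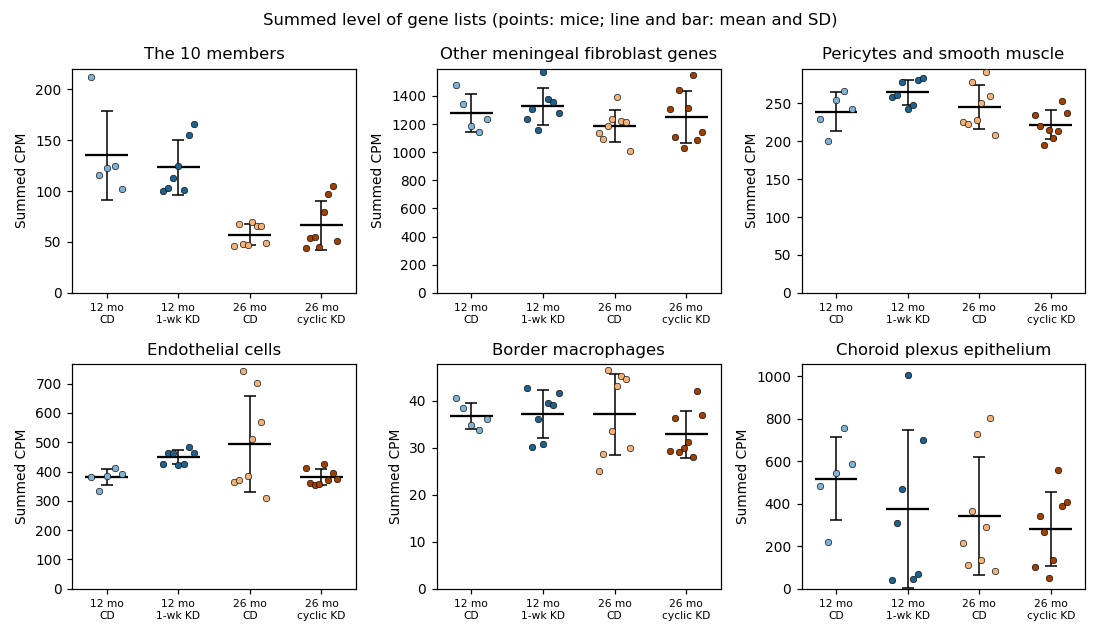
Summed CPM (y axis) of the 10 genes, of the further meningeal list and of 4 cell type marker lists in each brain, by group (x axis), points standing for mice and lines with bars for the mean and SD. The sum of the 10 genes is 44.3 to 105 CPM in 26-month KD brains and at least 100.2 CPM in the 12-month KD brains, while the choroid plexus list spans 39.9 to 1006 CPM. The further meningeal list overlaps, at 1156.5 to 1566 CPM in 12-month KD brains and 1026 to 1551 CPM in 26-month KD brains.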

How the data were processed

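RNA of 28 whole brains was used, and 16 liver libraries of the same series were not used here. Per the labels and the methods, the authors trimmed reads with Trimmomatic, aligned them to GRCm38 with STAR and counted with RSEM, whose versions are not given in the sources used here, and they deposited raw counts per gene. Of 54446 identifiers, 54409 had a symbol. Counts were filtered with filterByExpr, scaled by TMM and tested with the quasi-likelihood test of edgeR 4.0.16 (R 4.3.3) in one fit of 4 groups, with Benjamini-Hochberg adjustment over 22079 genes and a call at an adjusted p under 0.05. The code was tested on simulated data. DESeq2 1.42.0, which the study used, was an alternative, as were no filter, RLE size factors, only the groups compared, a replicate block, leaving out each brain, and leaving out brains with over 0.5% Gm10800. Likeness used log2 CPM with a prior count of 2. Named were all members, for each list up to 4 genes by p in the KD age comparison and called genes, and the 10 genes most like the members. The members and lists were chosen with earlier results of these data known. No source says that mice shared litters or days, and p-values measure the spread between these mice.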

Additional observations from a re-analysis of the deposited data

Results flagged for a closer look

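4 of 40 groups of member values held a brain far from the rest of its group, measured by its gap to the nearest brain over the group's range. For independent, normally distributed values chance gives about 1 in 20 groups. The members moved together over the same brains, so the 40 groups are not independent and the count cannot be judged against that rate. CD replicate 1 of 12 months was the high brain in 3 of them, with Slc6a13 at 16.1 CPM, Dcn at 45.9 CPM and Ogn at 24.4 CPM. In KD-fed mice of 12 months, replicate 17 held Dcn at 36.3 CPM.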

How the results depend on the processing

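Members called lower between the ages in KD-fed brains numbered 7. The number was 5 to 8 with 1 brain left out, 5 with only the 2 groups compared (Slc13a4 and Slc6a20a lost), 8 with DESeq2 or with no filter on low counts (Slc22a6 gained), 4 without brains over 0.5% Gm10800 and 0 with a replicate block. Same-numbered brains came from different mice, and 4 of 10 pairs had a correlation over 0.1 (range -0.419 to 0.581). These 10 pairs cannot tell whether the numbers mark a shared order of handling, which the sources used here do not state. With the block, which left 7 residual degrees of freedom, Fmod had an adjusted p of 0.0691 (edgeR) and the other 6 called members 0.272 to 0.480, and the CD age value of Aldh1a2 was -1.77. Of all genes, 164 were called between the ages in KD-fed brains, against 272 with DESeq2, 2057 with no filter, 96 with only the 2 groups, 21 with the block, 64 without the Gm10800 brains and 93 to 199 with 1 brain left out. The 1 gene called for the one-week KD became 0 with no filter, with the block and without the Gm10800 brains, and 0 to 1 with 1 brain left out. The block also moved Slc22a6 from -0.27 to -1.11 for the one-week KD (adjusted p = 0.988, edgeR) and from 0.56 to 0.20 for the cyclic KD, and Ranbp3l from 0.33 to 0.11 for the latter. Log2 fold changes near 0 changed sign. For the one-week KD, the block gave Fmod -0.42 and Slc6a13 -0.43, and with 1 brain left out Fmod ran from -0.089 to 0.22, Ranbp3l from -0.24 to 0.0075, Slc6a13 from -0.057 to 0.28, Aldh1a2 from -0.18 to 0.18, Dcn from -0.51 to 0.17, Ogn from -0.19 to 0.18 and Slc6a20a from -0.21 to 0.070. For the cyclic KD, Lum was -0.026 with the block and -0.10 without the Gm10800 brains, where Slc6a20a was -0.11, and with 1 brain left out Slc13a4 ran from -0.023 to 0.30, Aldh1a2 from -0.020 to 0.25, Ogn from -0.026 to 0.22 and Slc6a20a from -0.059 to 0.16. The cause of these shifts was not tested. RLE size factors changed no call of a member. Between the ages in KD-fed brains, Dcn, not called, ran from -0.50 to -0.068 and Lum from -0.32 to -0.078 with 1 brain left out. Lum had as few as 11 counts in a brain. Its SE in the KD age comparison was 0.21, where the members' SEs ran from 0.17 (Slc6a20a) to 0.32 (Dcn).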
